A study of Mus musculus with 9 samples.

Results

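The genes followed were the small leucine-rich proteoglycans Dcn (decorin), Bgn (biglycan), Lum (lumican), Fmod (fibromodulin) and Ogn (osteoglycin), the large aggregating proteoglycan Vcan (versican), and the elastic fibre genes Eln (elastin), Fbn1 (fibrillin 1), Fbln2 (fibulin 2) and Mfap5 (microfibril-associated protein 5). They were chosen by symbol, and each symbol was taken through the platform's probe annotation to its transcript cluster, the set of array probes that stands for a gene's transcripts. Of the 10 members, 9 were found among 22206 transcript clusters tested, each with a single cluster, and Fbn1 was not analysed here. The label small proteoglycans covers 5 of them, whereas versican is a large proteoglycan.

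RNA of mouse submandibular salivary gland was measured on 9 Clariom S arrays. All animals were female C57BL6/J mice, 12 weeks old by the labels, with no transgene or drug named. Of the arrays, 3 held glands healed for 3 days after mock surgery, 3 held glands healed for 3 days after partial resection, and 3 held glands healed for 14 days after partial resection. No mock group of day 14 was analysed here, so at day 14 resection and time since surgery cannot be told apart. The labels call the arrays of a group biological replicates and do not say whether each is 1 animal.

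Small leucine-rich proteoglycans are secreted proteins with a curved core of leucine-rich repeats that bind collagen fibrils and set their diameter and spacing, and several of them also bind growth factors such as TGF-beta. Versican binds hyaluronan in loose, hydrated provisional matrix. Elastic fibres are built of an elastin core on a scaffold of fibrillin microfibrils, to which microfibril-associated proteins and fibulins attach. In glands such matrix surrounds the lobules, ducts and vessels and is made mainly by fibroblasts.

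The values are log2 expression after RMA, a method that corrects background, normalises probes across arrays and summarises them per transcript cluster. Array medians over all transcript clusters ran from 5.09 to 5.24, the highest value was 19.93, and arrays of 1 group correlated at 0.985 to 0.99 across transcript clusters. Members were tested in a limma fit over all transcript clusters, with p-values adjusted by Benjamini and Hochberg over all of them and a threshold of 0.05. Aqp5, the water channel of acinar cells, lay at 13.75 or above on every array, and the salivary products Pip, Car6 and Prol1 lay at the top of the scale. Smr3a, also listed as a salivary marker, lay at 3.33 to 4.52, below every array median.

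On day 3 after resection, 5 of the 9 measured members were higher than in mock glands: Bgn, Lum, Ogn, Vcan and Mfap5. The largest of these differences was that of Mfap5, at 3.04 ± 0.56 log2 (difference ± standard error, SE), and the smallest that of Lum, at 1.39 ± 0.28. Dcn, Eln and Fbln2 had positive differences of 0.66 to 0.92 that did not pass, and the difference of Fmod was negative and did not pass. Of all transcript clusters tested, 6.27% were called in this comparison with 4.92% called higher and 1.36% lower. The median difference was 1.39 over the 9 members and -0.06 over all transcript clusters. At day 14, 0 of the 9 members passed against mock with limma, 0 had an unadjusted p under 0.05, and the groups overlapped for all 9, while 0.153% of all transcript clusters were called and 13.0% did not overlap.

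**Figure D1:**
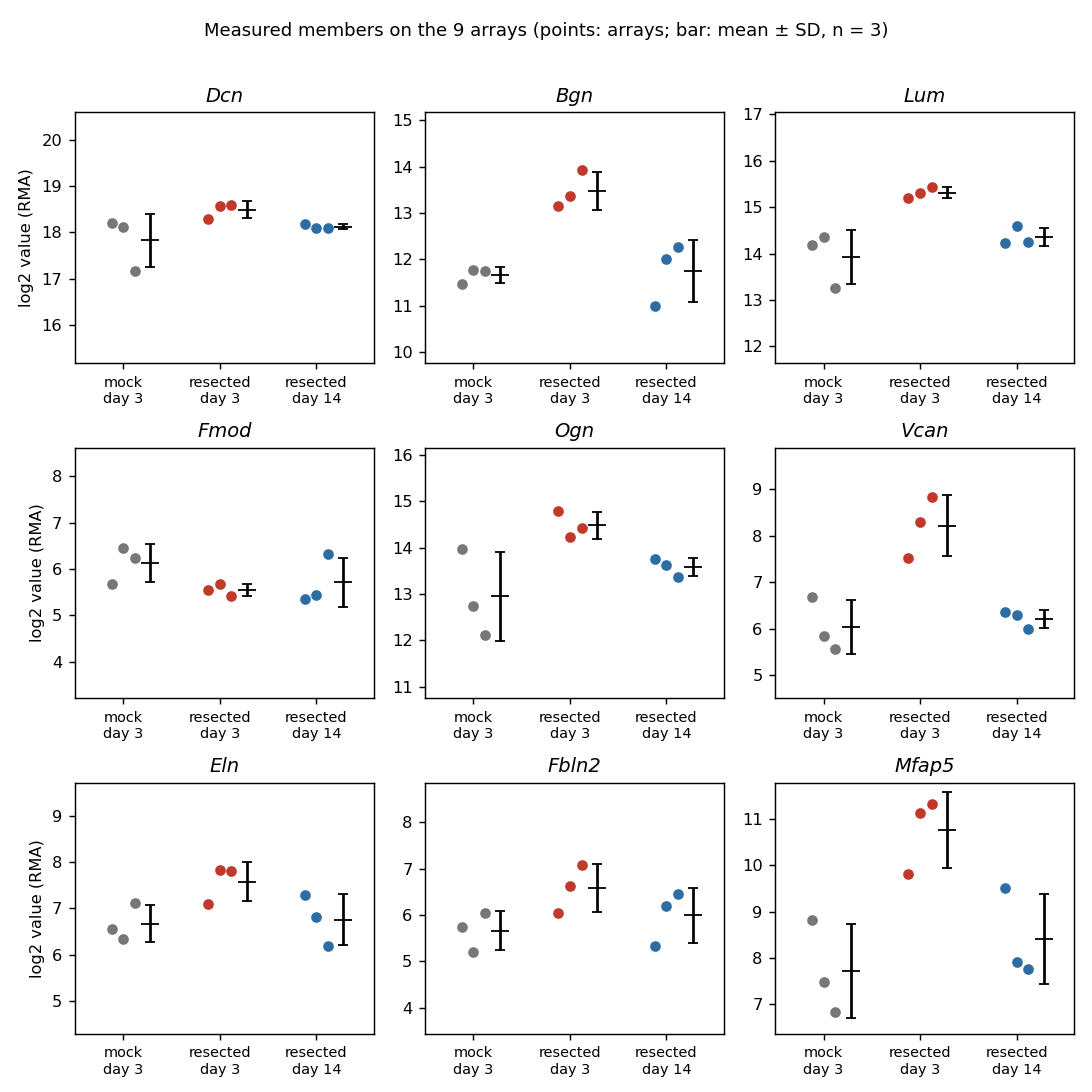
Log2 RMA values of the 9 measured members on each array, with mock day 3 in grey, resected day 3 in red and resected day 14 in blue; the black bars give mean ± SD of 3 arrays, and every panel spans the same number of log2 units. The day 3 resected arrays of Bgn (13.14 to 13.93) lie above all other arrays of that gene, whereas those of Fmod (5.42 to 5.68) do not.

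Decorin, the proteoglycan with a single chondroitin or dermatan sulphate chain that decorates collagen fibrils, was at 18.2, 18.12 and 17.17 on mock arrays 1, 2 and 3. On day 3 after resection it was at 18.29, 18.58 and 18.6, and on day 14 at 18.18, 18.09 and 18.09. The day 3 resected arrays lay above all mock arrays, but by little, and mock replicate 3 stood apart below the others. The difference of 0.66 ± 0.27 did not pass (adjusted p = 0.203, 95% interval 0.08 to 1.24), and it was 0.33 without mock replicate 3. All of these values lie above 16, a level that 337 transcript clusters exceeded on at least 1 array.

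Biglycan, the closest relative of decorin and a proteoglycan with a pair of chains, was at 11.46, 11.77 and 11.76 on the mock arrays. After resection it was at 13.14, 13.36 and 13.93 on day 3 and at 11, 12 and 12.26 on day 14. The day 3 resected values were above those of both other groups with no overlap. The rise over mock was 1.81 ± 0.32 (adjusted p = 0.00354), and from day 3 to day 14 Bgn fell by 1.72 ± 0.32 (adjusted p = 0.00454). Against mock, day 14 differed by 0.09 ± 0.32 (95% interval -0.59 to 0.78). Within arrays, Bgn minus Dcn was higher on day 3 after resection than in mock by 1.16, with no overlap between the groups. An exact permutation test of this change gave p = 0.1, the smallest that 3 against 3 arrays allow (0.2 when adjusted over 12 tests of 4 pairs).

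Lumican, which carries keratan sulphate in some tissues and regulates fibril assembly, was at 14.18, 14.35 and 13.25 on the mock arrays. After resection it was at 15.2, 15.31 and 15.43 on day 3 and at 14.23, 14.59 and 14.25 on day 14. The day 3 resected arrays were close to each other and above every other array. The rise over mock was 1.39 ± 0.28 (adjusted p = 0.00819). From day 3 to day 14 the values were lower without overlap, at -0.96 ± 0.28, which did not pass (adjusted p = 0.0621). It passed without mock replicate 2 (0.0499) or mock replicate 3 (0.0153), with array weights (0.0341) and with only the compared groups in the fit (0.0206).

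Fibromodulin, which binds fibrillar collagen and is related to lumican, was at 5.67, 6.46 and 6.23 on the mock arrays. It was at 5.55, 5.68 and 5.42 on day 3 and at 5.36, 5.44 and 6.32 on day 14 after resection. The groups overlapped, and all values were little above the median of all transcript clusters. The day 3 difference from mock was -0.57 ± 0.29 (adjusted p = 0.322, 95% interval -1.20 to 0.05). Fmod minus Lum within arrays was therefore lower on day 3 after resection than in mock, by -1.96, again without overlap (exact permutation p = 0.1, adjusted 0.2).

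Osteoglycin, a small proteoglycan first known as an osteoinductive factor, was at 13.98, 12.75 and 12.11 on the mock arrays, the widest mock spread among the small proteoglycans. It was at 14.79, 14.23 and 14.43 on day 3 and at 13.76, 13.63 and 13.37 on day 14 after resection. Every day 3 resected array was above every other array. The rise over mock was 1.54 ± 0.38 (adjusted p = 0.0285), a call that ended without mock replicate 2 (difference 1.44, adjusted p = 0.0957) or mock replicate 3 (1.12, 0.0943), without any 1 day 3 resected array (adjusted p 0.0524 to 0.0955), and with only the compared groups in the fit (0.0771). The change from day 3 to day 14, at -0.90 ± 0.38, did not pass (adjusted p = 0.213). It passed with only the compared groups in the fit (0.0424). Ogn minus Lum within arrays differed by 0.15 between day 3 resected and mock glands, and the groups overlapped (exact permutation p = 0.8).

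Versican, the hyaluronan-binding proteoglycan of provisional matrix, was at 6.69, 5.85 and 5.56 on the mock arrays. It was at 7.52, 8.3 and 8.83 on day 3 and at 6.36, 6.29 and 6 on day 14 after resection. The day 3 resected arrays stood apart from both other groups, which overlapped each other. The rise over mock was 2.18 ± 0.35 (adjusted p = 0.00186), and Vcan fell by 2.00 ± 0.35 from day 3 to day 14 (adjusted p = 0.00304). At day 14 it differed from mock by 0.18 ± 0.35 (95% interval -0.57 to 0.93). Within arrays, Vcan minus Dcn was higher by 1.52 on day 3 after resection than in mock (exact permutation p = 0.1, adjusted 0.2).

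Elastin, the core protein of the fibre, was at 6.55, 6.34 and 7.11 on the mock arrays. It was at 7.09, 7.82 and 7.81 on day 3 and at 7.28, 6.81 and 6.18 on day 14 after resection. Day 3 resected replicate 1 lay within the mock range, so the groups overlapped, and the difference of 0.91 ± 0.32 did not pass (adjusted p = 0.128, 95% interval 0.22 to 1.60).

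Fibulin 2, which links elastin, fibrillin and basement membrane proteins, was at 5.73, 5.21 and 6.04 on the mock arrays. It was at 6.04, 6.63 and 7.07 on day 3 and at 5.33, 6.19 and 6.46 on day 14 after resection. Its lowest day 3 resected array equalled the highest mock array to 2 decimals, and the difference of 0.92 ± 0.34 did not pass (adjusted p = 0.159, 95% interval 0.18 to 1.66).

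Mfap5, a small glycoprotein bound to fibrillin microfibrils, was at 8.83, 7.49 and 6.83 on the mock arrays. It was at 9.82, 11.13 and 11.31 on day 3 and at 9.52, 7.92 and 7.77 on day 14 after resection. It had both the largest day 3 difference and the largest spread within groups, with SDs of 1.02, 0.81 and 0.97. The rise over mock was 3.04 ± 0.56 (adjusted p = 0.00492). From day 3 to day 14 it fell by 2.35 ± 0.56 (adjusted p = 0.0237), a call that ended without day 3 resected replicate 2 (adjusted p = 0.0941) or replicate 3 (0.115) and without day 14 resected replicate 2 (0.0998) or replicate 3 (0.106). At day 14 it differed from mock by 0.69 ± 0.56, with a wide 95% interval of -0.52 to 1.90.

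From day 3 to day 14, 3 of the 9 members therefore passed, Bgn, Vcan and Mfap5, all lower, beside 6.28% of all transcript clusters called and 4.88% called lower. Because the mock arrays cancel, this comparison is also the test of whether the difference from mock changed between the days. For 6 of 9 members the day 3 and day 14 resected arrays did not overlap, all lower at day 14, against 12.5% of all transcript clusters that were lower without overlap. Against mock, 6 of 9 were higher on day 3 without overlap, against 11.2% of all. The comparisons share arrays, so these counts are not independent of each other.

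**Figure D2:**
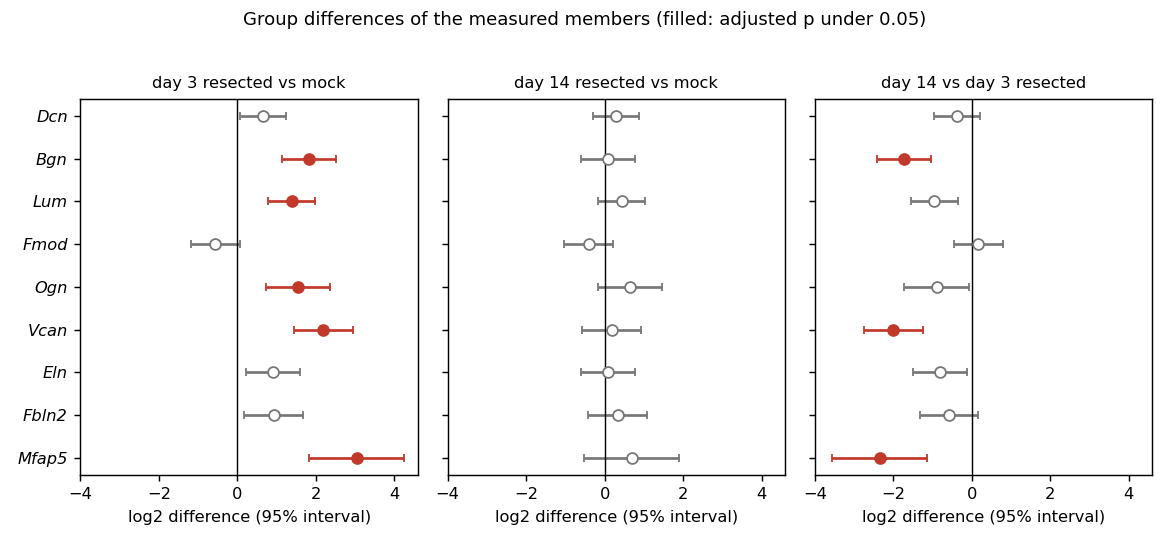
Log2 differences of the 9 measured members with 95% intervals from the limma fit in the 3 comparisons; filled red points passed an adjusted p of 0.05 and open grey points did not. On day 3 against mock 5 points are filled, at day 14 against mock none is, and between the days Bgn, Vcan and Mfap5 are filled on the negative side.

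Several small proteoglycan genes sit beside each other on chromosomes, in the order given by RefSeq for GRCm38.p6. On chromosome 10, Dcn and Lum are followed by Kera (keratocan) and Epyc (epiphycan), which are known from cornea and cartilage. Kera differed from mock by 0.30 ± 0.31 on day 3 and Epyc by 0.21 ± 0.33, and neither passed, so of the 4 neighbours Lum alone passed. However, Kera (3.39 to 5.02) and Epyc (3.35 to 4.56) lay under the array medians on every array, where a change may not show. On chromosome 13 the order is Ecm2, Aspn, Omd and Ogn. Aspn (asporin), a small proteoglycan that binds collagen and TGF-beta, was at 7.83, 6.63 and 6.66 on the mock arrays, at 9.66, 10.08 and 11.47 on day 3 and at 8.75, 8.34 and 7.48 on day 14 after resection. It rose by 3.36 ± 0.47 on day 3 (adjusted p = 0.000816), whereas Ecm2 (-0.11 ± 0.27) and Omd (osteomodulin, 0.29 ± 0.35) did not pass. On chromosome 1, Optc (opticin, -0.34 ± 0.24), Prelp (0.40 ± 0.37) and Fmod did not pass. Optc too lay under the array medians on every array, at 2.84 to 3.96. On chromosome 13 the called genes Aspn and Ogn thus enclose Omd, which was not called, and none of the chromosome 1 genes passed.

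**Figure D3:**
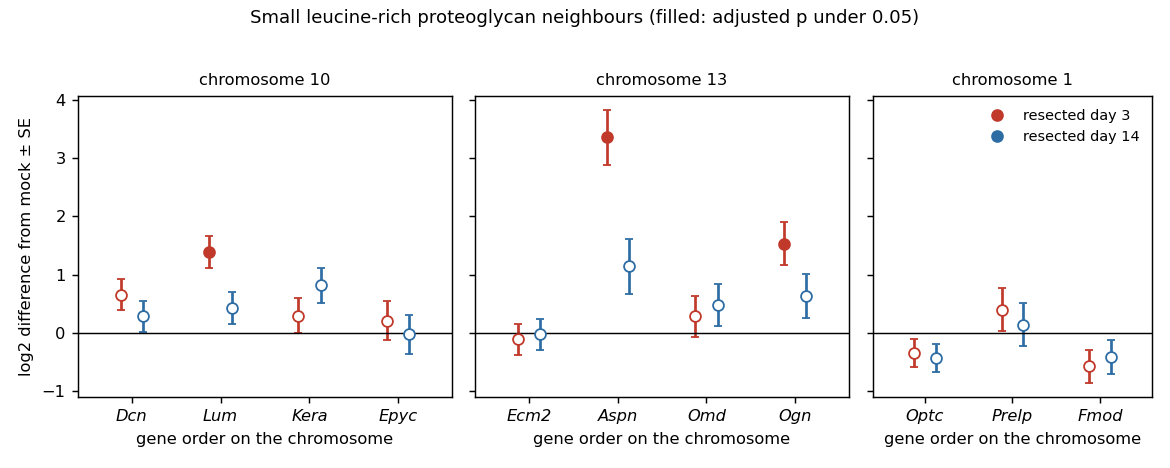
Log2 differences from mock ± SE of small leucine-rich proteoglycan genes that neighbour a member, drawn in gene order (not to distance) for chromosomes 10, 13 and 1, with day 3 in red and day 14 in blue; filled points passed an adjusted p of 0.05. Filled points are Lum, Aspn and Ogn on day 3, with Aspn highest at 3.36. Kera, Epyc and Optc lay under the array medians on every array.

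Upstream sequences were read from RefSeq for the 5 of 9 measured members that the promoter table lists (Bgn, Fmod, Ogn, Vcan and Fbln2) and for Aspn. The 250 bases before the annotated start are shown for Bgn and for the called chromosome 13 neighbours Aspn and Ogn, and for Fmod as a member that was not called (GRCm38.p6, read 5′ to 3′ along the gene). Capitals mark matches, on either strand, to 4 motifs: the TATA box, searched as TATAAA, the GC box, searched as GGGCGG, the AP-1 site, searched as TGANTCA, and the SMAD element, searched as CAGAC. Matches may overlap.
Bgn, chrX:73483351-73483600, plus strand: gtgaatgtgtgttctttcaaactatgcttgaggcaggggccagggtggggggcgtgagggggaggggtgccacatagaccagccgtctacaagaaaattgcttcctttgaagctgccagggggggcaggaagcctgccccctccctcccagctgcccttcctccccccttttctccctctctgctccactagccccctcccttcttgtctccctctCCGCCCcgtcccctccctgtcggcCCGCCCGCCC
Aspn, chr13:49544193-49544442, plus strand: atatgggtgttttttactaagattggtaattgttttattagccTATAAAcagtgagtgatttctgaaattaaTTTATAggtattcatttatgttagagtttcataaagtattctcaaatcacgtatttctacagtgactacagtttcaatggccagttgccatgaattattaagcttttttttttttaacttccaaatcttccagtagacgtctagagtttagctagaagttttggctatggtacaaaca
Ogn, chr13:49607765-49608014, plus strand: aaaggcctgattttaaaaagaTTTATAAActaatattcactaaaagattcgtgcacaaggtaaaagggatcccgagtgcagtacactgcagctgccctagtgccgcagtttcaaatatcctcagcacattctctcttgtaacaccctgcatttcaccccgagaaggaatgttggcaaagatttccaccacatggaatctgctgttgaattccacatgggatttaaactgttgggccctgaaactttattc
Fmod, chr1:134037004-134037253, plus strand: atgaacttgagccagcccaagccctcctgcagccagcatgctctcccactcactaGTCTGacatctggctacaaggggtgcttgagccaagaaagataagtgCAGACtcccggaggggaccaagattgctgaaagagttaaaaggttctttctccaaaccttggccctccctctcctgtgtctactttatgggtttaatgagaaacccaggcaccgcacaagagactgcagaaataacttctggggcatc

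The Bgn window held 3 GC boxes, all within 34 bases of the start and the last pair overlapping, and 64.4% G and C. GGGCGG was present in 32.7% of 32851 windows of the same length in the table. The Vcan window held 2 GC boxes and that of Fbln2 1. The Aspn and Ogn windows each held 2 TATAAA matches, overlapping in Ogn, and in both genes 173 or more bases before the start, with 12.4% of all windows holding one. The Aspn window had 30% G and C. Fmod held 2 CAGAC matches, a motif of 42.2% of all windows. TGANTCA, present in 6.75% of all windows, was not among the letters of these 6 windows. These matches describe the windows and are no measure of binding.

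Among 11 other measured small leucine-rich proteoglycans, Aspn was the 1 that rose on day 3, beside 4.92% of all transcript clusters called higher. The list's median difference was 0.21. Of 14 other measured genes of elastic fibres and microfibrils, 5 rose, beside the same share of all, with a median of 0.70. They were the microfibril-associated Mfap4 (2.43 ± 0.36, adjusted p = 0.00118), the lysyl oxidase Loxl1 that cross-links elastin (2.19 ± 0.32, adjusted p = 0.00123), the fibulin family members Efemp1 (1.65 ± 0.36, adjusted p = 0.0158) and Fbln1 (1.64 ± 0.41, adjusted p = 0.0324), and Mfap2, the close relative of Mfap5 (1.60 ± 0.38, adjusted p = 0.0228). Mfap4 was at 6.5, 6.45 and 6.68 on the mock arrays, at 8.64, 8.25 and 10.04 on day 3 and at 6.95, 6.82 and 6.78 on day 14 after resection. Its day 3 resected arrays were above all others. Mfap2 was under the array medians on the mock (2.96 to 4.73) and day 14 arrays (4.38 to 4.82), and at 4.95 to 5.65 on day 3. Fbln5, which guides elastin onto microfibrils (0.27 ± 0.25), and the latent TGF-beta binding protein Ltbp1 (0.74 ± 0.32, adjusted p = 0.241) did not pass. Leaving out mock replicate 3, or day 3 resected replicate 3, ended the calls of Fbln1 (differences 1.04 and 1.45), Mfap2 (1.44 and 1.61) and Efemp1 (1.23 and 1.35), while Mfap2 also lost its call without mock replicate 1 (1.23) or day 3 resected replicate 2 (1.41), and Fbln1 without day 3 resected replicate 1 (1.60) or day 14 resected replicate 1 or 3 (1.64 in both). With only the compared groups in the fit, Fbln1 (adjusted p = 0.0863), Mfap2 (0.0655) and Efemp1 (0.0535) did not pass either, and Fbln1 also lost its call after quantile normalisation (0.0585) and with the replicate block (0.0505). From day 3 to day 14, Mfap4 fell by 2.13 ± 0.36, Loxl1 by 1.55 ± 0.32 and Emilin1, an elastin interface protein, by 0.98 ± 0.26. Emilin1 lay at 3.92 to 5.34, under the array medians except on day 3 resected replicate 3.

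**Figure D4:**
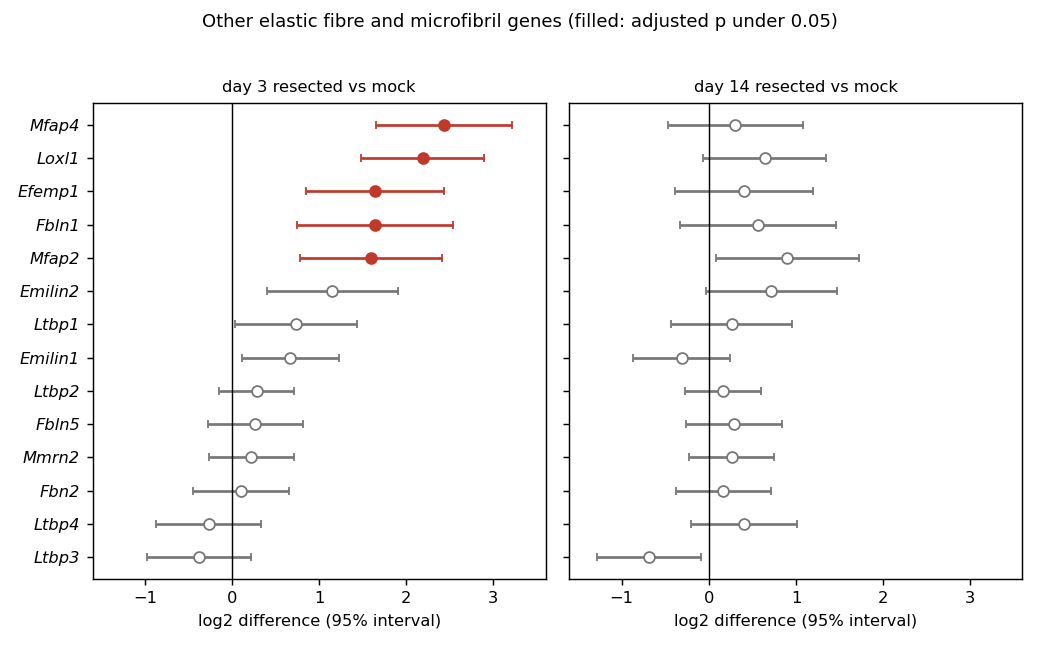
Log2 differences with 95% intervals of the 14 other measured elastic fibre and microfibril genes against mock, for day 3 (left) and day 14 (right) after resection; filled red points passed an adjusted p of 0.05. On day 3 the 5 filled points are Mfap4, Loxl1, Efemp1, Fbln1 and Mfap2, and on day 14 no point is filled.

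Aggregating proteoglycans, link proteins and hyaluronan genes had 2 of 12 measured members that rose on day 3 (median 0.14). These were Has2, a hyaluronan synthase (1.03 ± 0.21, adjusted p = 0.00882), and Tnfaip6, which transfers heavy chains onto hyaluronan (1.45 ± 0.32, adjusted p = 0.0165); both calls ended without day 3 resected replicate 3 (adjusted p = 0.0504 and 0.0525), and that of Tnfaip6 also without mock replicate 3 (0.0578). Of 20 measured genes that build chondroitin and dermatan sulphate chains, 1 rose (median 0.19), a share close to the 4.92% of all transcript clusters called higher. It was Dse, which converts chondroitin to dermatan sulphate (1.30 ± 0.32, adjusted p = 0.0311). That call was lost on leaving out mock replicate 3, or replicate 2 or 3 of the day 3 resected arrays, after quantile normalisation, with the replicate block and with only the compared groups in the fit. The chain-building enzyme Chsy1 differed by 0.91 ± 0.29 and did not pass (adjusted p = 0.0983). Across these 4 lists 9 of 57 genes rose on day 3, beside 4.92% of all transcript clusters called higher, 3 without day 3 resected replicate 3. At day 14, 0 of 57 passed against mock with limma, beside 0.153% of all transcript clusters. An unadjusted p under 0.05 was found for 5 of the 57, beside 8.18% of all. From day 3 to day 14, 8 of the 57 fell, beside 4.88% of all transcript clusters called lower. The count was 2 to 4 without day 3 resected replicate 2 or 3 or any 1 day 14 array.

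Markers of fibroblasts rose with the members on day 3, when 4.92% of all transcript clusters were called higher. Of 8 measured fibroblast markers, 7 rose on day 3, among them Col1a1 (5.12 ± 0.58), Col3a1 (4.69 ± 0.42) and the adventitial fibroblast genes Pi16 (1.85 ± 0.44) and Dpt (2.02 ± 0.40), and Pdgfrb did not pass (0.70 ± 0.27). Averaged, these 8 were at 8 to 8.83 on the mock arrays, 10.49 to 12.11 on day 3 and 9.09 to 9.68 on day 14 resected arrays. At day 14, 0 of the 8 passed against mock with limma, beside 0.153% of all transcript clusters. An unadjusted p under 0.05 was found for 3 of the 8, beside 8.18% of all transcript clusters. The groups did not overlap for 4 of the 8, Col1a1, Col1a2, Col3a1 and Dpt, all higher, beside 13.0% of all in either direction. The other fibroblast markers overlapped, with a negative difference for Pdgfrb (-0.22 ± 0.27). All 9 members overlapped, beside the same 13.0% that did not. All 5 measured macrophage markers rose on day 3, and 0 of the 5 passed against mock with limma at day 14, beside 0.153% of all. Their mean levels were 8.06 to 9 on mock, 11.72 to 12.26 on day 3 and 9.03 to 9.38 on day 14 resected arrays. In RNA of whole glands, more cells of a type and more RNA per cell cannot be told apart, nor can fewer cells and less RNA per cell. The part of these cells in the differences of the followed genes was not tested. Mock replicate 3 was the lowest mock array for both lists (mean differences from the mock mean of -0.48 and -0.59) and for Dcn, Lum, Ogn, Vcan and Mfap5. Without it, the day 3 differences were 1.05 for Lum, 1.94 for Vcan and 2.60 for Mfap5, which still passed.

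Lists for other cell types that such a sample could hold were also read on day 3. For the counts below, 4.92% of all transcript clusters were called higher and 1.36% lower in that comparison. In the lymph node list, 1 of 6 genes rose, the B cell chemokine Cxcl13 (3.17 ± 0.39, adjusted p = 0.000297), without overlap of the arrays. Of the 6, 3 had an unadjusted p under 0.05, 2 higher and 1 lower. The lower gene was Cr2 (-0.66 ± 0.19, adjusted p = 0.0656), also without overlap. Cr2 lay at 2.97 to 4.06, under the array medians on every array. From day 3 to day 14 Cxcl13 fell by 3.30 ± 0.39 (adjusted p = 0.00016), and 1 other gene of the list was called higher. The list's mean difference from the mock mean was -0.18 to 0.21 on mock, 0.5 to 0.84 on day 3 and 0.03 to 0.51 on day 14 resected arrays. The part of such cells in the differences of the followed genes was not tested. In the keratinocyte list, 1 of 4 measured genes fell, the keratin gene Krt10 (-1.05 ± 0.25, adjusted p = 0.0241). Krt10 was near the array medians on mock (4.75 to 5.48) and under them on day 3 (3.76 to 4.43). Of the smooth muscle list 1 gene fell. None of the 8 smooth muscle and pericyte markers, 6 endothelial, 5 adipocyte, 6 skeletal muscle or 7 cartilage and tendon markers rose with limma, where 1, 2, 0, 0 and 0 of them had an unadjusted p under 0.05, beside 18.6% of all transcript clusters. Acan and Comp, defining genes of cartilage, stayed at or below 4.58 on every array, under the array medians. Of the same list, Matn1, Tnmd and Scx stayed at or below 4.9, whereas Col2a1 lay at 5.01 to 5.98 and Sox9 at 11.25 to 12.8. Of the acinar markers 2 of 7 fell, Bhlha15 (-1.19 ± 0.31) and Slc12a2 (-1.15 ± 0.24), and Pip, Car6 and Prol1 were at the ceiling and could not show a change. Of 5 duct markers 2 fell, Egf (-2.94 ± 0.59) and Scnn1g (-1.46 ± 0.27), and Krt19 rose (1.04 ± 0.27). Krt19 lay at 3.66 to 4.3 on the mock arrays, under the array medians. The duct marker Klk1 was at the ceiling and could not show a change either.

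**Figure D5:**
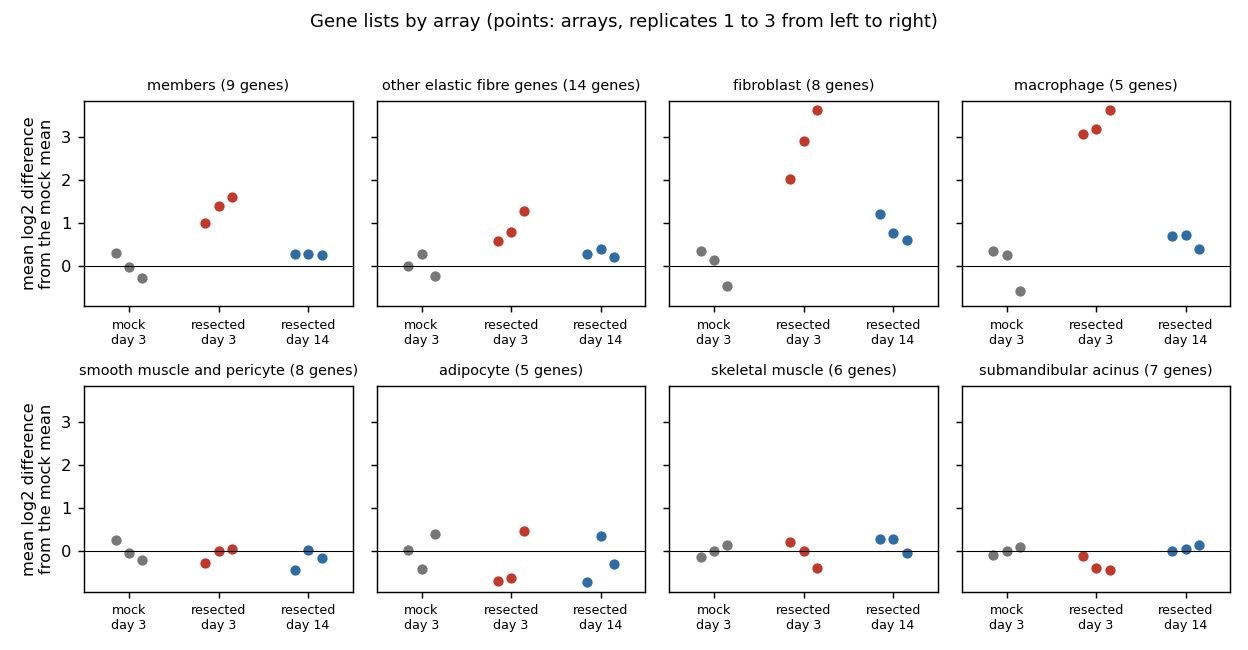
Mean log2 difference from the mock mean on each array for the members, the other elastic fibre genes and 6 cell type marker lists, with mock day 3 in grey, resected day 3 in red and resected day 14 in blue. The day 3 resected arrays lie at 0.99 to 1.59 for the members, at 2.01 to 3.62 for fibroblast markers and at 3.06 to 3.61 for macrophage markers.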

How the data were processed

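Total RNA of 9 gland samples was measured on Clariom S arrays. The deposited values are log2 expression, made by the authors with Transcriptome Analysis Console 4.0 and RMA, per the submitters' processing notes and design text. The genome build is not given in the sources used here. Of 28846 rows, 6640 control rows were left out. The remaining 22206 transcript clusters were tested without a filter on low values, and 19572 of them had a symbol (RefSeq, GRCm38.p6, through the Entrez identifier in the platform's probe table). A log2 difference is on the deposited scale and is no calibrated fold change. All 9 arrays entered 1 limma 3.58.1 model (R 4.3.3) with a mean per group and moderated variances, two-sided, checked on simulated data. Where a symbol has several clusters, the one with the highest mean was used.

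The members, lists and tests were chosen with earlier results of these data known. All 10 members were to be named, with up to 3 called genes of each family list per direction and comparison and the chromosomal neighbours; genes named beyond this rule (Fbln1, Mfap2, Fbln5, Ltbp1, Chsy1 and single markers) were chosen after their values were seen. Of 7 planned within-array pairs, the 3 that need Fbn1 were not run. Alternatives were quantile normalisation, median centring, leaving out the dimmest 30%, robust variances, array weights, only the groups compared, the replicate block and leaving out each array. The number of arrays limits the precision.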

Additional observations from a re-analysis of the deposited data

Results flagged for a closer look

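For 11 genes the difference from mock itself differed between day 14 and day 3, tested in limma as day 14 minus day 3 resected. Among the members the values were -1.72 for Bgn (adjusted p = 0.00454), -2.00 for Vcan (0.00304) and -2.35 for Mfap5 (0.0237). Among the family lists they were -2.21 for Aspn (0.0125), -2.13 for Mfap4 (0.00255), -1.55 for Loxl1 (0.0114), -0.98 for Emilin1 (0.0384), -1.08 for Has2 (0.00622), -1.34 for Tnfaip6 (0.0255), -1.19 for Dse (0.0481) and -1.29 for Dsel (0.0269). They were 3 of 9 measured members and 8 of 57 family genes, beside 4.88% of all transcript clusters called lower. All 11 were lower at day 14 without overlap of the arrays, beside 12.5% of all transcript clusters. Overlap was read here only for genes already called on the same arrays. The calls of Bgn, Vcan, Mfap4 and Has2 held without any 1 array. That of Mfap5 ended (adjusted p 0.0941 to 0.115) on leaving out replicate 2 or 3 of either resected group. Aspn lost its call without day 3 resected replicate 3 (0.0541) or day 14 resected replicate 3 (0.0655), and Loxl1 without day 3 resected replicate 2 (0.0567) or 3 (0.0659) or day 14 resected replicate 2 (0.0527). Tnfaip6 lost it without day 3 resected replicate 3 (0.0844) or any 1 day 14 array (0.051 to 0.11), and Dsel without day 3 resected replicate 2 (0.0554) or 3 (0.116) or any 1 day 14 array (0.0673 to 0.0937). Emilin1 lost it without any 1 resected array or mock replicate 1 (0.0516 to 0.17), and Dse (0.052 to 0.208) without any 1 day 14 array, replicate 2 or 3 of the day 3 resected arrays, or replicate 1 or 2 of mock. The replicate block ended the calls of Emilin1 (0.0681) and Dse (0.0775), and quantile normalisation that of Dse (0.0917). Groups of 3 arrays were too small for a test of single outlying samples.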

How the results depend on the processing

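The count of called members on day 3 was 4 or 5 under every alternative run, and Bgn, Lum, Vcan and Mfap5 passed in all of them. The members called from day 3 to day 14 were 2 on leaving out replicate 2 or 3 of either resected group, and 4 at most without 1 array. With only the groups compared they went from 3 to 5 and the family genes called on day 3 from 9 to 5. Leaving out 1 array gave 850 (without day 3 resected replicate 3) to 1307 called transcript clusters on day 3 (1393 with all), 20 (without day 14 resected replicate 2; 22 without replicate 3) to 58 (without mock replicate 3) at day 14 (34) and 874 (without day 3 resected replicate 3) to 1429 between the days (1394), and 3 to 9 and 2 to 10 family genes on day 3 (9) and between the days (8). Among calls on day 3, 78.4% were higher, against 68.3% after quantile normalisation and 67.8% after median centring, and between the days 22.2% were higher, against 31.8% and 29.5%. Uncalled day 14 differences from mock changed sign without 1 array, with ranges of -0.044 to 0.47 for Dcn, -0.16 to 0.47 for Bgn, -0.058 to 0.51 for Vcan, -0.17 to 0.38 for Eln, -0.13 to 0.012 for Has2, -0.033 to 0.89 for Fbln1, -0.0055 to 0.80 for Efemp1 and -0.24 to 0.28 for Dse, and Fmod between the days ranged from -0.15 to 0.33. The cause was not tested. Same-numbered arrays did not deviate together across all transcript clusters (correlations of -0.087 to 0.051). The labels name no pairing, and such correlations could miss a shared effect on few genes, so whether these arrays share more than a number is not known. With the replicate block, 5, 0 and 3 members, 7, 0 and 6 family genes and 1283, 26 and 1297 transcript clusters passed in the 3 comparisons. Each member has 1 transcript cluster, so averaging clusters of a symbol could not differ.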

Other observations

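Several genes outside the members differed from mock at day 14 by more than on day 3, and a pair of them was chosen after their values were seen. Chst3, not of the pair, differed by 0.66 ± 0.27 at day 14 and 0.29 ± 0.27 on day 3, and neither difference passed in limma. Kera, a corneal proteoglycan, was at 4.17, 4.84 and 3.39 on the mock arrays and at 4.96, 4.87 and 5.02 on the day 14 arrays, a difference of 0.82 ± 0.31 that did not pass in limma (adjusted p = 0.522; 0.30 on day 3). Ltbp3, a latent TGF-beta binding protein, differed by -0.69 ± 0.28 (adjusted p = 0.555; -0.38 on day 3). The change between the days was not called for Kera or Ltbp3. Kera lay at or below 5.02 on every array, under the array medians.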
